A study of Mus musculus with 5 samples.

Results

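The interleukin 1 (IL-1) family and its receptors were taken as 10 genes: the ligands Il1a, Il1b, Il18 and Il33, the antagonist Il1rn, and the receptor genes Il1r1, Il1rap, Il18r1, Il1rl1 and Il1r2. They were matched by gene symbol or synonym to probe sets that carried exactly 1 gene symbol. Of the 10 genes, 9 had such a probe set, 1 each, among 18809 genes named in this way and 35556 probe sets on the array. Il1rl1, the receptor for IL-33, was not listed in the platform annotation used here and is not analysed. The arrays measured RNA from whole liver of adult C57Bl/6 mice. The 3 control livers came from mice given rat IgG, and the 2 treated livers from mice given M279, an antibody against CSF1R, the receptor through which CSF1 and IL-34 maintain macrophages. Each intraperitoneal injection held 300 µg of antibody or IgG, with 3 injections a week for 6 weeks. Nothing in the labels says whether each array stands for a separate animal, so p-values measure the spread between these arrays, which may in part be technical.

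IL-1α and IL-1β are inflammatory cytokines that act through the receptor IL-1R1 and its partner IL-1RAcP, the product of Il1rap. IL-1β and IL-18 are made as inactive precursors that caspase 1 cuts in inflammasomes, while IL-1α and IL-33 can act as alarm signals when cells die. The pathway is restrained by the antagonist IL-1Ra, which occupies IL-1R1 without signalling, by the decoy receptor IL-1R2, and by a binding protein that captures IL-18. In the liver, macrophages are a known source of IL-1β, and hepatocytes answer IL-1 by secreting acute phase proteins.

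All values are log2 intensities as the authors scaled them, and differences are treated minus control from limma, with its standard error (SE). A probe set's brightness depends on its sequence as well as on RNA, so levels are compared between arrays and not between genes. No detection calls were used, so whether a dim probe set measures its transcript is not known here. Median intensity lay between 32.5 and 33.9 on the 5 arrays, and pairs of arrays correlated at 0.9825 to 0.9917 across probe sets. Csf1r, the antibody's target, differed by -0.56 ± 0.12 (SE, 3 control and 2 treated arrays), with both treated arrays under all controls. Hepatocyte markers had means of 12.6 to 12.7 on every array, and markers of Kupffer cells, the resident liver macrophages, had means of 8.23 to 8.49 on the controls and of 7.88 and 8.35 on treated replicates 1 and 2. Of 11 Kupffer cell markers, 9 were lower and 2 higher in treated liver, with a median difference of -0.25, and 3 had each treated array below every control (16.9% of all probe sets did). That median was -0.48 without treated replicate 2, 0.04 without treated replicate 1 and -0.13 without control replicate 2. When all probe sets were split into 4 equal bins by mean level, 0 of the 11 markers fell in the 2 dimmest bins. In the third and the brightest bin, 30.9% and 26% of probe sets had both treated arrays below all controls. In whole liver, fewer cells of a type and less RNA per cell cannot be told apart. Control replicate 2 stands apart for some, not all, of the inflammatory genes described here, and each difference that rests on it is also given without it.

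No gene of the family passed the test between treated and control liver. Of the 9 measured genes, 4 were higher and 5 lower in treated liver, where 56.3% of all genes were higher, with a median difference of -0.12, where the median over all probe sets was 0.05 and over 1 probe set per gene 0.04. None had an adjusted p under 0.05 in limma (0 of 9), where 0 of 35556 probe sets did (0%). At an unadjusted p under 0.05 there were 2 of 9, 22.2%, close to the 18.4% of all probe sets. For 2 of the 9 genes, also 22.2%, the treated arrays were both above or both below every control, where the share over all probe sets was 41.2%. With 2 arrays against 3, an exact permutation test cannot give a p under 0.1, so none was used for single genes. The widest differences within the family lay among the control livers: Il1b, Il1a and Il1r1 each ranged over more than 1 log2 unit among the 3 controls. That is 3 of 9 genes, where 118 of 18809 genes (0.627%) had so wide a range.

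**Figure D1:**
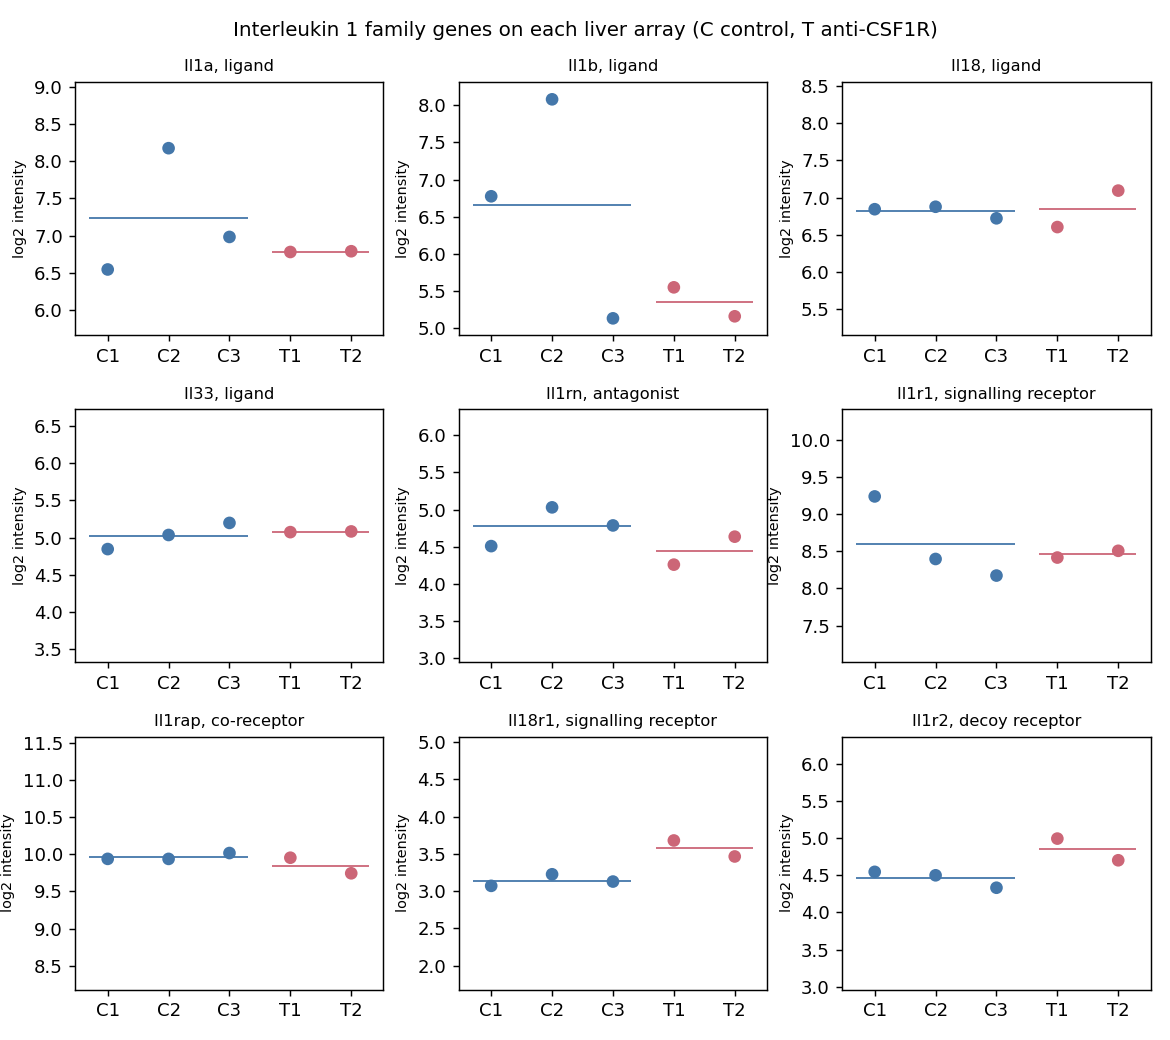
Log2 intensity of each measured IL-1 family gene on the 3 control arrays (C1 to C3) and the 2 anti-CSF1R arrays (T1, T2), with lines at the group means; every panel spans the same height on the log2 scale. Il1a and Il1b are highest on C2 and Il1r1 on C1, while Il18r1 and Il1r2 are higher on both treated arrays than on any control.

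Il1b, which encodes the inflammasome-dependent cytokine IL-1β, had the widest range of the family. It was measured at 6.78, 8.08 and 5.14 on control replicates 1, 2 and 3, and at 5.55 and 5.16 on treated replicates 1 and 2. Control replicates 1 and 2 were above both treated arrays, and control replicate 3 lay below both, so the groups overlapped. The difference was -1.31 ± 0.79 (SE), a treated level of 0.404 times the control level, with a 95% interval from -3.23 to 0.62 and an adjusted p of 0.384 in limma. Without control replicate 2 it was -0.60, and without control replicate 3 it was -2.07, so the size of the difference moved by over 1.5 times with either control.

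Il1a encodes IL-1α, which shares its receptor with IL-1β. It was measured at 6.54, 8.17 and 6.98 on control replicates 1, 2 and 3 and at 6.78 and 6.79 on the treated arrays. The treated arrays differed from each other by 0.01, and both lay between control replicates 1 and 3. The difference of -0.45 ± 0.45 (SE, limma adjusted p = 0.579) came to 0.02 without control replicate 2 and to -0.79 without control replicate 1.

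Control replicate 2 was therefore the highest of the 3 controls for both IL-1 ligands, by 1.30 for Il1b and 1.19 for Il1a over the next control. Such a lead of over 1 log2 unit over both other controls was found on this array for 22 of 18809 genes (0.117%), against 7 genes (0.0372%) on control replicate 1 and 1 gene (0.00532%) on control replicate 3. The 22 genes also held the cytokines Il6 and Tnf, the chemokines Ccl3, Cxcl2, Ccl5 and Cxcl10, the prostaglandin synthase Ptgs2, the nitric oxide synthase Nos2, the itaconate-producing enzyme Acod1 and the C-type lectin receptor Clec4e. Others were of different kinds, such as the fatty acid hydroxylase Cyp4a14, the collagenase Mmp13, the transcription factor Myc and Gadd45g, a stress-induced gene of growth arrest. These names were chosen after their values were seen, and no theme of the 22 was tested. Ptgs2 stood at 7.94 on control replicate 2, against 3.84 and 3.94 on the other controls and 4.49 and 4.16 on the treated arrays. Kupffer cell markers moved less: 8 of 11 were highest on control replicate 2 of all 5 arrays, and their median there was 0.166 above the control mean. Neutrophil markers had 0 of 10 highest on that array and a median of -0.0333 against the control mean. Monocyte markers had 1 of 8 and a median of 0.0585. The part of any cell type in the IL-1 values of control replicate 2 was not tested.

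Of all genes outside the family, 5 came closest to Il1b in pattern, by the root mean square difference between mean-centred log2 profiles over the 5 arrays. Gadd45g was nearest at 0.222. Its values were 6.85, 8.17 and 5.71 on the controls and 5.50 and 5.49 on the treated arrays. The next were Igfbp1 at 0.539, an insulin-like growth factor binding protein made by hepatocytes, and Cd40 at 0.57, a costimulatory receptor of antigen-presenting cells. Rgs1, a regulator of G protein signalling in leukocytes, was at 0.59, and the cell cycle inhibitor Cdkn1a at 0.592. Within the family, Il1a was nearest to Il1b, at 0.831, and the other measured genes were at 1.03 to 1.24. Il1b peaks on control replicate 2, so genes chosen for likeness to it tend to peak there too, and over 5 arrays the likeness is a description only.

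**Figure D2:**
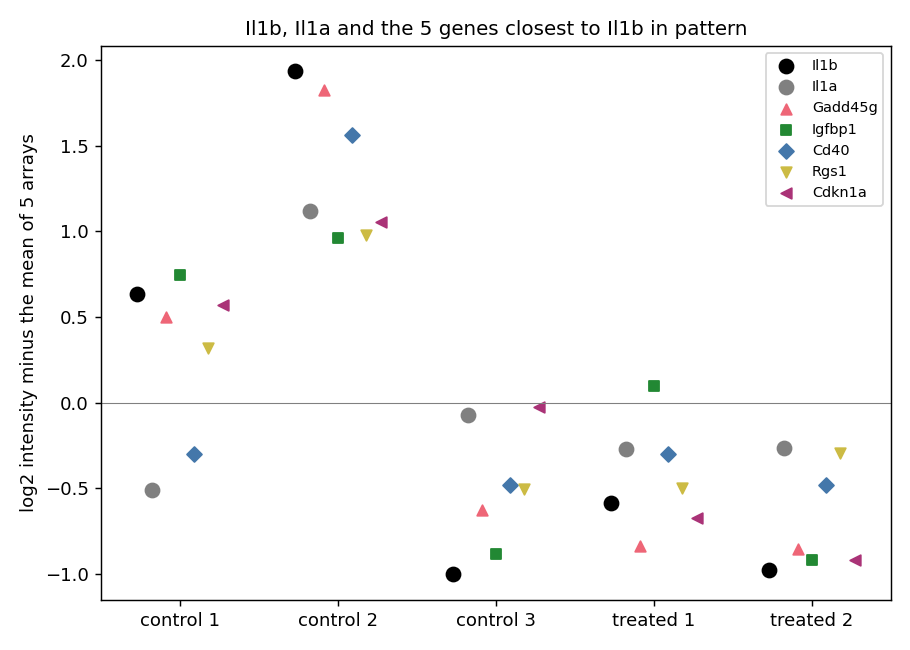
Log2 intensity minus each gene's own mean over the 5 arrays (vertical axis) on each array (horizontal axis), for Il1b, Il1a and the 5 genes closest to Il1b. All 7 genes are highest on control 2, which the choice by likeness favours for the 5, and Gadd45g follows Il1b at a root mean square difference of 0.222.

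The sequence before the start of Il1b is shown beside that of Gadd45g, since Gadd45g was chosen as closest to it in pattern, with the core stretch of Il1a for comparison. Sequences are from RefSeq on GRCm38.p6, 5′ to 3′ on the strand of the gene. For Il1b (minus strand, chr2:129371140-129371389) and Gadd45g (plus strand, chr13:51846425-51846674) they are the 250 bases before a RefSeq start, and for Il1a (minus strand, chr2:129309978-129310007) they run from position -35 to -6. The starts used for Il1b and Il1a lie inside the bounds of the RefSeq gene, and that of Gadd45g lies at its bound. Capitals mark the TATA box letters TATAAA.
Il1b: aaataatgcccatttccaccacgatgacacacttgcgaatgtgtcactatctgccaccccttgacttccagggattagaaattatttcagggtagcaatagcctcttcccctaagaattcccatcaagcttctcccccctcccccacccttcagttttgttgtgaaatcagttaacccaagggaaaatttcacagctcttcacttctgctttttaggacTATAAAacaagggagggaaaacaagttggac
Gadd45g: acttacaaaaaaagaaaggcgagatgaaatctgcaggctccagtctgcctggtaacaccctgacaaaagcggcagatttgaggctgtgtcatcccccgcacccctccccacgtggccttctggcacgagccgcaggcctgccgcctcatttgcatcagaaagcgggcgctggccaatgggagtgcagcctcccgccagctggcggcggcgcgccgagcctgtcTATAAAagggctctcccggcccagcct
Il1a: gacTATAAAaaggcagagaagcctgactca
TATAAA began at -31 in Il1b, at -32 in Il1a and at -27 in Gadd45g. Among the other genes close to Il1b in pattern, TATAAA was in 0 of 1 window of Igfbp1 and 0 of 2 windows of Cdkn1a. Cd40 and Rgs1 had no window. On the gene's own strand and beginning between -35 and -25, these letters were found in 576 of 32851 RefSeq windows (1.75%). The motifs searched on both strands were TATAAA, the AP-1 letters TGANTCA and the PU.1 core GAGGAA. They occurred in 12.4%, 6.75% and 23.3% of all windows of 250 bases. All 10 family genes had at least 1 window, 17 in all. All 4 ligand genes had TATAAA in a window, and 0 of the 6 antagonist and receptor genes did. The match in Il18 was on the other strand at -175, and Il33 had 1 at -203 in one window and 1 at -29 in the other. The AP-1 letters were found in Il1a and in 1 of 3 windows of Il1rn, and the PU.1 core in Il1a and in 1 of 3 windows of Il18r1. A match describes the letters only.

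The ligands Il18 and Il33 had small mean differences between the groups. The treated arrays of Il18 differed by 0.49, the widest gap between them for any measured family gene. Il18, which encodes a cytokine that drives interferon-γ production by lymphocytes, was measured at 6.84, 6.88 and 6.72 on control replicates 1, 2 and 3 and at 6.60 and 7.09 on treated replicates 1 and 2. The treated arrays lay on either side of all the controls. The difference was 0.03 ± 0.17 (SE, limma adjusted p = 0.915), with a 95% interval from -0.37 to 0.44. It was -0.21 without treated replicate 2, 0.28 without treated replicate 1 and -0.01 without control replicate 3.

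Il33 encodes a nuclear alarmin of stromal and endothelial cells. Its values were 4.85, 5.04 and 5.20 on the controls and 5.07 and 5.08 on the treated arrays, both inside the range of the controls. The difference was 0.05 ± 0.13 (SE, limma adjusted p = 0.836; 95% interval from -0.28 to 0.38), and it was -0.04 without control replicate 1. Markers of stellate cells had means of 7.67 to 7.84 on the 5 arrays, and markers of endothelial cells means of 8.21 to 8.36. Of 10 stellate cell markers, 6 were higher and 4 lower in treated liver, with a median difference of 0.03. Of 10 endothelial markers, 3 were higher and 7 lower, with a median of -0.13. The stellate median was -0.05 without treated replicate 1, and the endothelial median -0.02 without treated replicate 2. The part of these cells in the values of Il33 was not tested.

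Il1rn, which encodes the antagonist IL-1Ra, was lower in treated liver in each of the 16 alternative settings that measured it, without passing in any that tested it. Il1b, Il1rap, Il18r1 and Il1r2 also kept their direction in every setting. The settings reuse the same 5 arrays, so they are not separate evidence. It was measured at 4.51, 5.03 and 4.79 on control replicates 1, 2 and 3 and at 4.26 and 4.64 on treated replicates 1 and 2. Treated replicate 1 was the lowest of all arrays, treated replicate 2 lay inside the control range, and control replicate 2 was again the highest. The difference was -0.33 ± 0.20 (SE, limma adjusted p = 0.379; 95% interval from -0.80 to 0.15). It was -0.14 without treated replicate 1, -0.52 without treated replicate 2 and -0.20 without control replicate 2. In all, 3 of the 9 genes, Il1a, Il1b and Il1rn, had their highest value of the 5 arrays on control replicate 2, where 20.2% of all genes did.

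Il1r1, the signalling receptor for both IL-1 ligands, also had 1 control apart from the rest, but a different one. It was measured at 9.24 on control replicate 1, against 8.40 and 8.17 on control replicates 2 and 3 and 8.42 and 8.51 on the treated arrays. The treated arrays lay inside the control range, above control replicates 2 and 3. The difference of -0.14 ± 0.31 (SE, limma adjusted p = 0.805; 95% interval from -0.90 to 0.62) turned to 0.18 without control replicate 1.

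Il1rap, the co-receptor shared by the IL-1, IL-33 and IL-36 receptors, was the steadiest gene of the family among the controls. Its values were 9.94, 9.94 and 10.02 on the controls and 9.95 and 9.74 on the treated arrays. Only treated replicate 2 lay outside the control range. The difference was -0.12 ± 0.11 (SE, limma adjusted p = 0.572; 95% interval from -0.40 to 0.17), -0.01 without treated replicate 2 and -0.22 without treated replicate 1.

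With the values as deposited, Il18r1 and Il1r2 were the only family genes whose treated arrays both lay outside the controls, and both lay above; with quantile normalization Il1rap did too, below. Il18r1, the ligand-binding chain of the IL-18 receptor, was measured at 3.07, 3.23 and 3.13 on the controls and at 3.68 and 3.47 on treated replicates 1 and 2. The difference was 0.43 ± 0.12 (SE), a ratio of 1.35, with a 95% interval from 0.14 to 0.73, an unadjusted p of 0.0115 and an adjusted p of 0.205 in limma. Il1r2, the decoy receptor that binds IL-1 without signalling, was measured at 4.55, 4.50 and 4.33 on the controls and at 4.99 and 4.70 on the treated arrays. Its difference was 0.39 ± 0.14 (SE), a ratio of 1.31, with a 95% interval from 0.05 to 0.72, an unadjusted p of 0.0302 and an adjusted p of 0.237 in limma. It was 0.24 without treated replicate 1 and 0.53 without treated replicate 2.

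Both treated arrays lay above all controls for 24.3% of all probe sets, and more often among dim ones. Probe sets were split into 4 equal bins by mean level. Il18r1 fell in the dimmest bin, where the median difference was 0.16 and 41.9% had both treated arrays above all controls. Il1r2 fell in the second bin, where the median was 0.13 and the share 33.2%. In the third bin the median was -0.13 with 9.1% above, and in the brightest -0.04 with 13% above. From the dimmest bin to the brightest, both treated arrays lay below all controls for 3.19%, 7.67%, 30.9% and 26% of probe sets. With cyclic loess, which evens out shifts that depend on level, Il18r1 was at 0.26 and Il1r2 at 0.31 (limma adjusted p of 0.425 and 0.418). With 16 added to each intensity before log2, which damps dim probe sets, Il18r1 was at 0.17 and Il1r2 at 0.24. The part of this level-dependent shift in the differences was not tested.

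Some markers of cells known to carry these receptors lay higher in treated liver too, and others lay lower. Markers of T cells, NK cells and innate lymphoid cells, which carry the IL-18 receptor, had means of 4.13 to 4.24 on the controls and 4.21 and 4.39 on the treated arrays, with 8 of 11 higher in treated liver and 3 of 11 above all controls on both arrays. Their median difference of 0.08 was -0.004 without treated replicate 2 and 0.17 without treated replicate 1. Il18rap, which encodes the second chain of the IL-18 receptor, was at 3.20, 3.24 and 3.11 on the controls and 3.29 and 3.20 on the treated arrays, a difference of 0.07 with overlapping groups. Neutrophil markers, whose cells carry IL-1R2, had means of 3.96 to 4.15 on the controls and 4.23 and 4.24 on the treated arrays, with 6 of 10 above all controls on both. Mast cell and basophil markers had means of 3.42 to 3.53 on the controls and 3.77 and 3.55 on the treated arrays, with 5 of 9 above. B cell markers had 1 of 5 above and bile duct markers 0 of 5. Hepatocyte markers had 3 of 8 above and 1 below, endothelial markers 2 of 10 above and 2 below, and stellate cell markers 1 of 10 above and 0 below. Of these 3 lists, 0 markers fell in the 2 dimmest bins. In the third and the brightest bin, 9.1% and 13% of probe sets were above and 30.9% and 26% below. Monocyte markers had 4 higher and 4 lower in treated liver, with 2 of 8 above all controls on both treated arrays and 2 of 8 below. Kupffer cell markers had 0 of 11 above and 3 of 11 below. Of these markers, 9 of 10 for neutrophils, 8 of 9 for mast cells and 9 of 11 for lymphocytes fell in the 2 dimmest bins, where 41.9% and 33.2% of probe sets had both treated arrays above all controls. The part of these cells in the values of Il18r1 and Il1r2 was not tested.

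**Figure D3:**
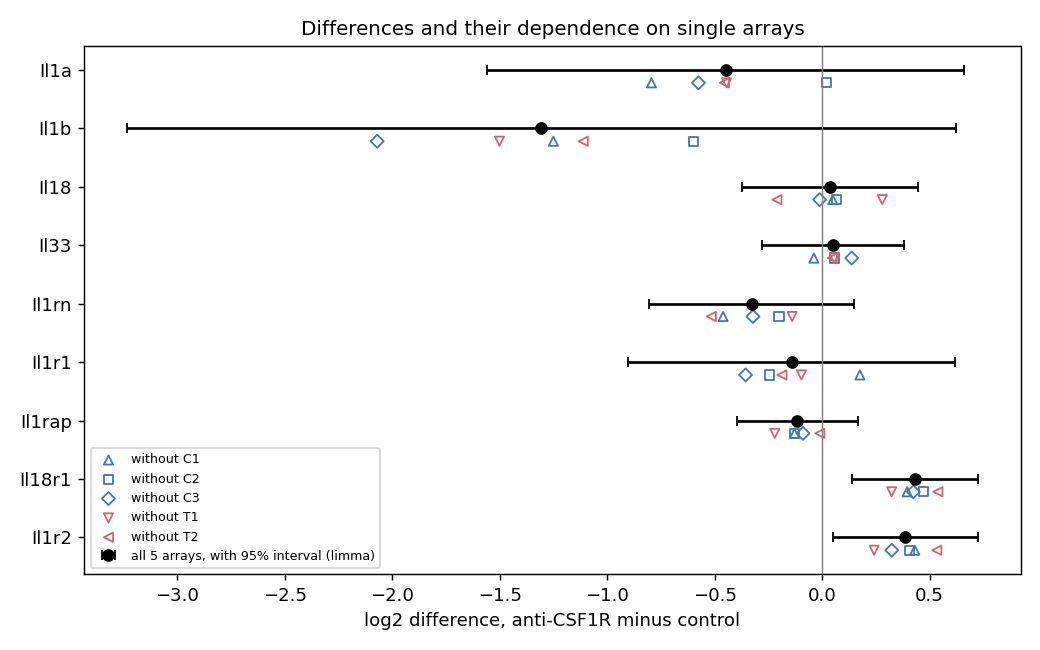
Log2 difference, anti-CSF1R minus control, for each measured IL-1 family gene (black points, with the 95% interval from limma) and the same difference without each array in turn (open symbols). Il1b spans -2.07 to -0.60 over these omissions, Il1a, Il18, Il33 and Il1r1 change sign, and Il18r1 and Il1r2 stay above 0.

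The rest of the pathway was described by 4 lists: other family members, inflammasome and processing genes, receptor-proximal signalling, and genes known to be induced by IL-1. None of their genes had an adjusted p under 0.05 in limma, where 0% of all probe sets did. Of the other ligands, receptors and inhibitors, 7 of 11 were measured, 6 higher and 1 lower in treated liver, with a median difference of 0.12. Of these 7, 5 fell in the 2 dimmest bins, where the medians over probe sets were 0.16 and 0.13. At an unadjusted p under 0.05 in limma there was 1 of 7, where 18.4% of all probe sets were. That gene was Il1f10, the IL-38 gene, at 2.67, 2.57 and 2.41 on the controls and 2.80 and 2.95 on the treated arrays (0.33 ± 0.13, SE, limma adjusted p = 0.258). The brain receptor genes Il1rapl2 (0.13) and Il1rapl1 (0.12) came next by p. Il1f10, Il1rapl2 and Il1rapl1 fell in the dimmest bin, where 41.9% of probe sets had both treated arrays above all controls. Sigirr, an inhibitory receptor, differed by 0.01, and Il18bp, which encodes the IL-18 binding protein, by -0.14.

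Inflammasome and processing genes were measured for all 15, with 6 higher, 9 lower, a median difference of -0.04 and 2 at an unadjusted p under 0.05, where 18.4% of all probe sets were. P2rx7, the ATP-gated channel that triggers the NLRP3 inflammasome, had the smallest p of the list. It was measured at 6.02, 6.18 and 6.02 on the controls and at 5.71 and 5.42 on the treated arrays, a difference of -0.51 ± 0.13 (SE, limma adjusted p = 0.196). Both treated arrays lay under all controls, as for 16.9% of all probe sets and 30.9% of those in its bin, the third by level. Gsdmd, which encodes the pore through which IL-1β leaves cells, was at 6.94, 6.70 and 6.85 on the controls and 6.59 and 6.56 on the treated arrays (-0.25 ± 0.12, SE, limma adjusted p = 0.304). Elane, a neutrophil protease that can cut IL-1 precursors, was at 4.47, 4.47 and 4.48 on the controls and 4.73 and 4.86 on the treated arrays (0.33 ± 0.10, SE, limma adjusted p = 0.221). Casp1, whose product cuts IL-1β and IL-18, was also highest on control replicate 2, with 5.26 on control replicate 2 against 4.24 and 4.53 on the other controls and 4.21 and 4.62 on the treated arrays. Its difference was -0.26 and became 0.03 without control replicate 2. Of the list's 15 genes, 9 were highest on control replicate 2. Without that array its median was 0.03, with 8 higher and 7 lower.

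Genes of receptor-proximal signalling lay close to 0. Of 16 genes, 12 were measured, with 4 higher, 8 lower, a median difference of -0.04, and 0 at an unadjusted p under 0.05 in limma, where 18.4% of all probe sets were. The 3 of smallest p were Ikbkb (-0.22 ± 0.11, SE) and Ikbkg (-0.15 ± 0.11), both subunits of the kinase complex that releases NF-κB, and the adaptor Myd88 (0.20 ± 0.14). For Ikbkb and Ikbkg, 2 of the 12, each treated array was lower than any control. That held for 16.9% of all probe sets and for 26% in the brightest bin, where both genes fell. The adjusted p in limma was 0.328 for Ikbkb, the smallest of the list.

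Genes known to be induced by IL-1 lay lower in treated liver, at a median of -0.36 over 16 measured of 17, with 12 lower and 4 higher. At an unadjusted p under 0.05 there were 5 of 16, where 18.4% of all probe sets were, and 6 of 16 had each treated array below every control, where 16.9% of all probe sets did. Of the 16, 4 fell in the 2 dimmest bins by level. In the third and the brightest bin, 30.9% and 26% of probe sets had both treated arrays below all controls. Kupffer cell markers lay lower as well, 9 of 11 of them at a median of -0.25 over the list. Their part in the values of the genes induced by IL-1 was not tested. Saa2, a serum amyloid A gene of hepatocytes, had the smallest p, with 10.69, 8.38 and 9.82 on the controls and 6.29 and 7.03 on the treated arrays (-2.97 ± 0.65, SE, limma adjusted p = 0.192). Among the controls Saa2 was lowest on control replicate 2, the array where Il1a and Il1b were highest, and without it the difference was -3.60. Lcn2, an iron-sequestering acute phase protein, was at 7.86, 8.11 and 7.26 on the controls and 6.63 and 6.89 on the treated arrays (-0.98 ± 0.26, SE, limma adjusted p = 0.198). Birc3, an NF-κB target that limits cell death, was at 7.32, 7.46 and 7.35 on the controls and 6.99 and 7.11 on the treated arrays (-0.33 ± 0.11, SE, limma adjusted p = 0.227).

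The list moved with control replicate 2: 12 of its 16 genes were highest there of all 5 arrays, and 5 of the 16 ranged over more than 1 log2 unit among the controls. Without that array its median was -0.16, with 10 lower and 6 higher. The differences of Ptgs2 and Cxcl2 went from -0.92 to 0.43 and from -1.14 to -0.13, and that of Il6 from 0.12 to 0.64. Those of Saa2, Lcn2 (-0.80) and Birc3 (-0.29) kept their direction. Ptgs2, Cxcl2 and Il6 were named after their values were seen.

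**Figure D4:**
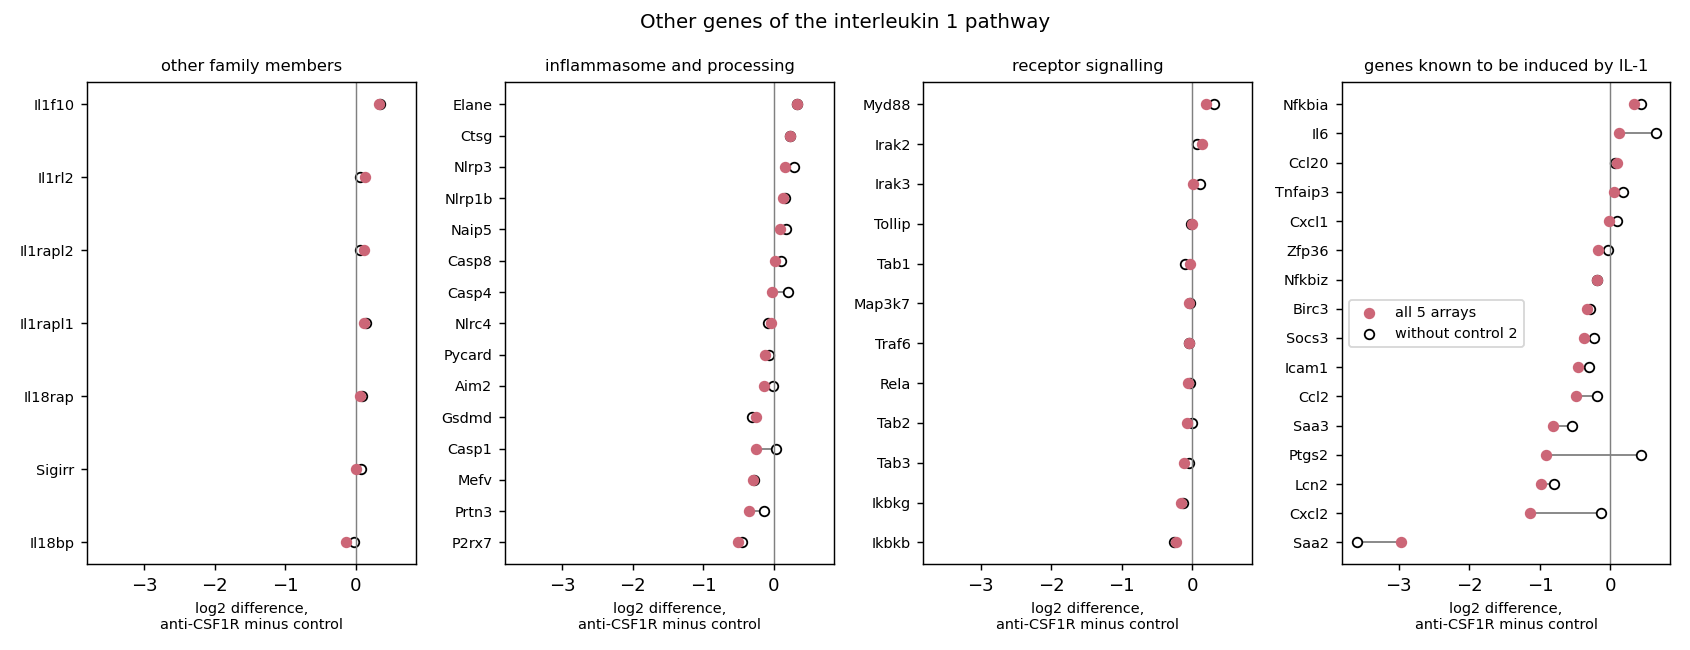
Log2 difference, anti-CSF1R minus control, for each measured gene of the 4 pathway lists, over all 5 arrays (filled points) and without control replicate 2 (open points), on a shared horizontal axis. Signalling genes stay close to 0, Ptgs2 moves from -0.92 to 0.43, and Saa2, at -2.97, is the lowest point with all arrays.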

How the data were processed

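The deposited table holds 1 intensity per probe set and array on a linear scale. The submitters' processing notes name Affymetrix Expression Console 1.1; how background, summary and normalization were set is not given in the sources used here. RNA was amplified as cDNA before labelling, per the labels' protocols, and amplification can change relative levels. The log2 of each value was used, unfiltered and with no added constant.

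Probe sets were named through the platform annotation and RefSeq (GRCm38.p6): 21218 carried 1 symbol, 1881 several, and 12457 were unlisted. The brightest probe set over the 5 arrays stood for a gene. The test between groups was limma's, version 3.58.1 under R 4.3.3 (lmFit, eBayes, two-sided, 3 residual and 3.03 prior degrees of freedom), adjusted by Benjamini-Hochberg over 35556 probe sets at a threshold of 0.05. The median SE was 0.138, and the number of arrays limits the precision. The fit was tested on simulated data. Alternatives were other normalizations, level filters, variance models, array weights, a pseudocount of 16, the replicate number as a block, and leaving out each array. The members and lists were chosen with earlier results of these data known. Genes named were all members, Csf1r, the 3 of smallest p in each pathway list and the 5 closest to Il1b; others were named after their values were seen. Stellate cell, endothelial, B cell and bile duct markers were lists too. Figures used matplotlib 3.10.9 in Python 3.11.15.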

Additional observations from a re-analysis of the deposited data

How the results depend on the processing

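No family gene passed in any alternative, and their smallest adjusted p in limma was 0.0981, for Il18r1 when limma was fitted on 1 probe set per gene. That fit called 14 genes (5 higher, 9 lower), where all probe sets gave 0. Values that changed direction were those of Il18 with the replicate block (-0.0113) and without control replicate 3 (-0.0113) or treated replicate 2 (-0.21), Il33 (-0.0381) and Il1r1 (0.176) without control replicate 1, and Il1a (0.0214) without control replicate 2. When 1 array was left out, Il18 ran from -0.21 to 0.28, Il33 from -0.0381 to 0.138, Il1r1 from -0.356 to 0.176 and Il1a from -0.794 to 0.0214. The count of genes with groups apart was 2, 1 with probe sets below the 25th percentile left out, which leaves out Il18r1, and 0 with those below the median left out, which also leaves out Il1r2 and Il1rn. It was 3 with quantile normalization, the third being Il1rap, lower in treated liver, 4 on the 4 arrays of the replicate block and 2 to 5 when 1 array was left out; fewer arrays make separation easier. The median difference of the family ran from -0.187 to 0.0214 when 1 array was left out, the latter without control replicate 2. A lone treated array was taken to vary as the controls do. Same-numbered arrays correlated at 0.0268 and 0.0325 in their deviations from group means. With 2 treated arrays these deviations mirror each other, so the values cannot tell whether same-numbered arrays were paired. The replicate block on arrays numbered 1 and 2, with 0 probe sets called, gives the differences found without control replicate 3. The list of other family members had a median of 0.0428 without control replicate 3, the processing list one of -0.169 without control replicate 1, and the Kupffer cell list ran from -0.481 without treated replicate 2 to 0.0422 without treated replicate 1, with -0.127 without control replicate 2, against -0.248 with all arrays. These list medians were added after seeing the data.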
